A study of Mus musculus with 18 samples.

Results

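The genes described here are 64 interferon-stimulated and interferon regulatory genes out of 18193 genes that the arrays measured. They were taken by gene symbol: the Ifit, Ifitm, numbered Ifi, Oas, Isg and numbered Gbp genes, Mx1, Mx2, the interferon regulatory factors, Stat2, and Usp18, Rsad2, Bst2, Zbp1, Cmpk2, Ifih1, Dhx58, Xaf1, Iigp1 and Igtp. The rule itself uses symbols and no measured value, and each gene stands for the one of its probe sets with the highest mean. Isg15 is not among the 64, because its probe set also matches a further gene. There were 18 samples, each on its own Affymetrix mouse array, with 3 in each of 6 groups. Wildtype and SOD1 mutant mice each gave whole ventral spinal cord, here called tissue, spinal motor neurons, and facial nucleus motor neurons from the brainstem. SOD1 encodes a copper and zinc superoxide dismutase, and mutations in it cause a familial form of amyotrophic lateral sclerosis. All RNA, in every group, went through a T7-based linear amplification. The SOD1 allele, the animals' age and sex and the way the motor neurons were picked are not given in the sources used here, and those sources leave D60, which stands in every title, unexplained. Nothing ties a sample to an animal, so each p-value reflects no more than the spread among these arrays, and that spread may be technical.

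Interferons are cytokines that bind receptors on the cell surface, activate JAK kinases and drive STAT and IRF transcription factors into the nucleus. These factors bind the interferon-stimulated response element and the gamma-activated site in the promoters of their target genes. The targets include the Ifit, Oas, Mx and Gbp effectors, which act against viral RNA, virus entry or intracellular pathogens, and brakes such as Usp18, a protease that takes ISG15 off other proteins and blocks the type I receptor. In the central nervous system microglia, astrocytes and neurons can all answer interferon.

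Levels are log2(intensity + 16) after quantile normalisation. A fold is given only where both group means reach 8.79, the 40th percentile of all genes. Arrays have no read depth, and 3 arrays per group limit the precision. The mean level of 9 motor neuron markers was 12.4 to 12.9 on the wildtype spinal motor neuron arrays, 11.9 to 12.1 on the wildtype facial ones and 10.0 to 10.3 on the wildtype tissue arrays. Myelin gene markers were still at a mean of 13.3 to 14.1 on the wildtype spinal motor neuron arrays. The ratio of the 3' to the 5' actin control, which grows as RNA or its copies get shorter, was 1.56 to 1.78 on the tissue arrays and 25.3 to 74.4 on the motor neuron arrays. In these bulk samples fewer cells of a type and less RNA per cell cannot be told apart. The interferon genes above 8.79 had a median SD of 0.19 in wildtype and 0.21 in mutant tissue, beside 0.14 and 0.13 for all genes above that level. Among the motor neuron groups that median SD ran from 0.39 to 0.73, beside 0.21 to 0.34 for all genes. Over all 18 arrays 30 of the 64 genes (46.9%) had a mean of 8.79 or more.

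In ventral cord tissue 10 of the 64 interferon genes rose in SOD1 mutants and none fell (limma, Benjamini-Hochberg adjusted over 10916 genes). They were Ifit3, Usp18, Oasl2, Ifit1, Ifi27l2a, Bst2, Ifitm3, Gbp6, Iigp1 and Gbp7, with log2 differences of 0.74 to 1.88. In all, 35 of the 64 were bright enough to be tested, and over all tested genes 0.504% were called higher and 0.137% lower. Wildtype means of 3 of the 10, Usp18, Oasl2 and Iigp1, lay under the lowest mean tested, 8.84, so these entered the test through the mutant arrays. So did Irf7, Irf8 and Rsad2, which were tested without passing.

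The Ifit proteins bind foreign RNA and block its translation. Ifit3 was measured at 11.48, 11.22 and 11.34 in wildtype tissue and at 12.74, 13.10 and 12.94 in mutant tissue. The groups did not overlap, and the difference was 1.58 ± 0.12 (SE, n = 3 per group; 2.99-fold, adjusted p = 0.0013). Ifit1 was at 9.08, 9.36 and 9.01 against 10.28, 10.51 and 10.58. Here too every mutant array lay above every wildtype array, with a difference of 1.31 ± 0.16 (2.48-fold, adjusted p = 0.00866). Ifit2 was apart in the same direction without passing the test (0.55 ± 0.14, adjusted p = 0.204). Ifit1bl1, an Ifit1-like gene, had the lowest value of the family at -0.32 ± 0.18 (adjusted p = 0.639), with overlapping groups.

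**Figure D1:**
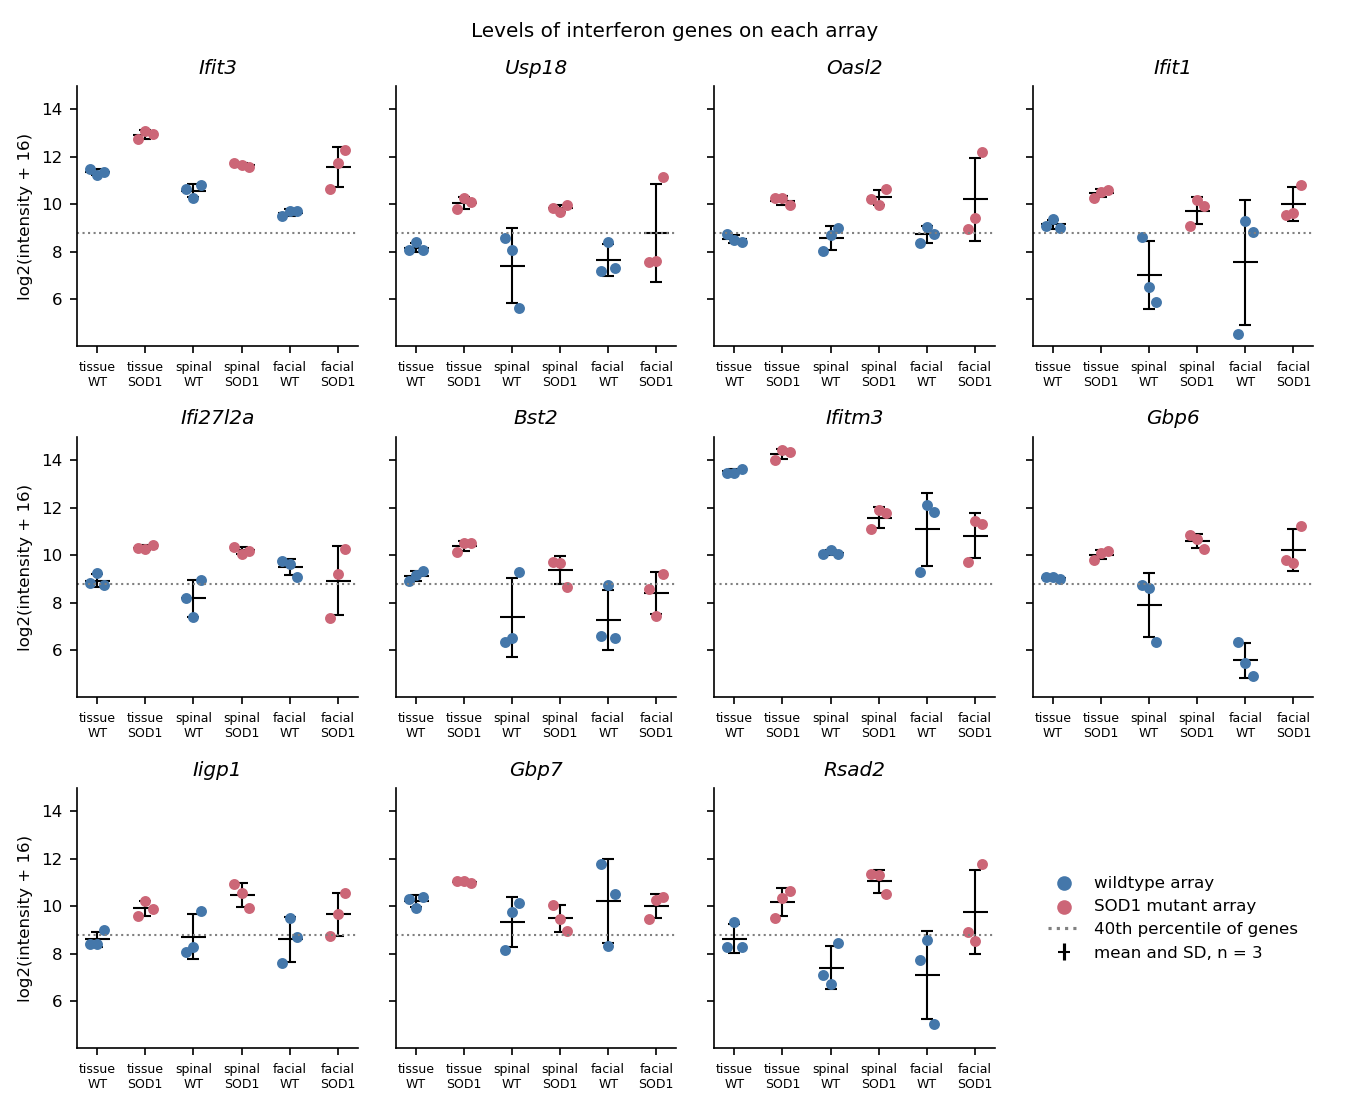
Level of 11 interferon genes, log2(intensity + 16), on each of the 18 arrays; blue points are wildtype and red points SOD1 mutant arrays, bars are the mean and SD of 3 arrays, and the dotted line is the 40th percentile of all genes, 8.79. In tissue the red points lie above the blue ones for every gene shown, while in facial motor neurons they overlap for all but Ifit3, Ifit1 and Gbp6.

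Since promoters of such genes carry the elements named above, the promoter windows were read from RefSeq (GRCm38.p6), 250 bases before to 50 after each annotated start. A window was found for 49 of the 64 genes, some with several starts, giving 61 windows. The letters GAAANNGAAA, the core of the interferon-stimulated response element, were searched on both strands, and 23 of the 61 windows (37.7%) held them, against 3.44% of all 32851 windows. TTCNNNGAA, the core of the gamma-activated site, was in 21.3% of the interferon gene windows and in 8.3% of all. Among the 10 genes that rose in tissue 6 have a window, and 5 of these hold GAAANNGAAA. Counted by gene, 17 of the 43 other interferon genes with a window (39.5%) held it, and 3.99% of all genes. The 250 bases before the start are shown for Ifit3, Ifit1 and Bst2, which rose, for Rsad2, and for Oasl2, which rose and whose window lacks the letters. Each is 5' to 3' on the strand of its gene, with matches on either strand in capitals. Ifit3 is chr19:34583279-34583528 (plus strand), Ifit1 chr19:34640639-34640888 (plus), Bst2 chr8:71537473-71537722 (minus), Rsad2 chr12:26456453-26456702 (minus) and Oasl2 chr5:114896684-114896933 (plus).
Ifit3: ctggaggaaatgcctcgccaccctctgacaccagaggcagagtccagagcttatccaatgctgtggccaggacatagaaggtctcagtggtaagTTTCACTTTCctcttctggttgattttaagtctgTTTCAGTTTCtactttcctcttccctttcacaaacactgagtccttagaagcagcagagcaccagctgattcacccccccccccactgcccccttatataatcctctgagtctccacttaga
Ifit1: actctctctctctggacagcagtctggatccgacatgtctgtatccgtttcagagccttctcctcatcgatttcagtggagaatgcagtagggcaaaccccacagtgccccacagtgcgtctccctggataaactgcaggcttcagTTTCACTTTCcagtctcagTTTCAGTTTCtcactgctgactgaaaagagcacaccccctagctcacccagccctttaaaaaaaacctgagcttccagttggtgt
Bst2: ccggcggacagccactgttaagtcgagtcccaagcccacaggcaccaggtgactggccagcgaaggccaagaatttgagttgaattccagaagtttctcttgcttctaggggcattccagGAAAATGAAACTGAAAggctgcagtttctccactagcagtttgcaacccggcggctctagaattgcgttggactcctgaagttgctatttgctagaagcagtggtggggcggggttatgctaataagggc
Rsad2: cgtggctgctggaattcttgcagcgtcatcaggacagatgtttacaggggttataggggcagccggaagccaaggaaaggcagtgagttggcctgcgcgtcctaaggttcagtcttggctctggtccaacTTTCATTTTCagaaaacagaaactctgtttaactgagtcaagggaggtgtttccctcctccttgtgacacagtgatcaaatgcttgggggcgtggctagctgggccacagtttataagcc
Oasl2: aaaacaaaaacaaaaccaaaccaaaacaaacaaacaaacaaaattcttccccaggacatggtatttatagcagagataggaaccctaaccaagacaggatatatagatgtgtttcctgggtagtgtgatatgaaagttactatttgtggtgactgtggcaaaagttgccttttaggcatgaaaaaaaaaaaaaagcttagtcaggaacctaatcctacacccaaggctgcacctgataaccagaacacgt

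In Ifit3 the matches begin 156 and 122 bases before the start, and in Ifit1 104 and 85 bases before it. The Bst2 matches overlap each other, at 130 and 124 bases before the start, and the single Rsad2 match begins 120 bases before it. Gbp7 has its match 53 bases before the start. In Ifitm3 both matches lie after the start, beginning 2 and 19 bases from it. The Ifit1 window shares 245 bases with one window of Ifit1bl2, which runs the other way, so both count the same letters. A match is only a run of letters, and its absence from the Oasl2 window says only that these letters are not in that window.

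Usp18 and Oasl2 stood with Ifit3 as the rises that kept adjusted p under 0.05 with each array left out in turn. Usp18 was at 8.05, 8.39 and 8.05 in wildtype and at 9.80, 10.27 and 10.07 in mutant tissue. Its groups were apart by more than a log2 unit, and the difference was 1.88 ± 0.19 (adjusted p = 0.00348). Oasl2, a 2'-5' oligoadenylate synthetase-like protein, was at 8.73, 8.49 and 8.41 in wildtype and at 10.26, 10.24 and 9.95 in mutant tissue. Again there was no overlap (1.61 ± 0.17, adjusted p = 0.0042). The other tested gene of the Oas family, Oas1a, differed by 0.67 ± 0.26 with overlapping groups (adjusted p = 0.443). The remaining 8 Oas genes were too dim to be tested in tissue.

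Rsad2, or viperin, an enzyme that makes a chain-terminating nucleotide, gave a difference as large as Ifit3 but with more spread. Its levels were 8.27, 9.35 and 8.28 in wildtype and 9.52, 10.36 and 10.65 in mutant tissue. The groups were apart, by little, and the difference of 1.54 ± 0.35 did not pass the test (adjusted p = 0.125). The other probe sets of Rsad2 gave 1.17 and 1.55, both at mean levels below the 40th percentile. Cmpk2, the kinase whose gene neighbours Rsad2, gave a difference of -0.04 ± 0.21 (adjusted p = 0.977), and its second bright probe set gave 0.39.

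Among the membrane proteins, Bst2, or tetherin, which holds budding virus at the cell surface, was at 8.90, 9.16 and 9.32 in wildtype and at 10.14, 10.51 and 10.53 in mutant tissue. This rise of 1.27 ± 0.18 (2.41-fold, adjusted p = 0.0164) separated the groups. Ifitm3, which hinders virus entry at endosomes, rose from 13.47, 13.48 and 13.62 to 14.01, 14.41 and 14.35. Of the 7 Ifitm genes it was the one that passed (0.74 ± 0.11, 1.67-fold, adjusted p = 0.0191). Ifitm1, Ifitm2, Ifitm6 and Ifitm10 differed by -0.18 to 0.37 and did not pass. Ifi27l2a, an interferon-induced protein of mitochondria and nuclear envelope, was at 8.81, 9.24 and 8.74 in wildtype and at 10.28, 10.25 and 10.43 in mutant tissue. It rose by 1.39 ± 0.18 (2.62-fold, adjusted p = 0.00912). Its relative Ifi27 differed by 0.59 ± 0.15 with separate groups (adjusted p = 0.205), and a second bright Ifi27 probe set by 0.54.

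The interferon-inducible GTPases attack the membranes of vacuoles that hold pathogens. Gbp6 was at 9.07, 9.08 and 9.02 in wildtype and at 9.80, 10.08 and 10.18 in mutant tissue, a rise of 0.97 ± 0.16 (1.95-fold, adjusted p = 0.0294). Gbp7 went from 10.30, 9.94 and 10.40 to 11.08, 11.05 and 10.97, a rise of 0.82 ± 0.15 (1.76-fold, adjusted p = 0.0464). Iigp1, an immunity-related GTPase, was at 8.40, 8.42 and 8.98 against 9.59, 10.23 and 9.89, a rise of 1.30 ± 0.23 (adjusted p = 0.0395). None of these 3 genes had overlapping groups. Igtp (0.99 ± 0.20, adjusted p = 0.0753) and Gbp2 (1.10 ± 0.25, adjusted p = 0.132) were apart without passing. A second Gbp2 probe set, brighter in tissue at a mean of 10.05 against 9.49, gave 0.65. Mx1 and Mx2 were too dim to be tested, at differences of 0.21 and 0.46 with overlapping groups. Xaf1, a pro-apoptotic interferon target, came close to the threshold (0.75 ± 0.14, adjusted p = 0.0577).

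None of the 9 transcription factors passed in tissue, and 6 were tested. Irf7, which amplifies type I interferon production, was at 8.04, 8.60 and 8.62 in wildtype and at 9.29, 9.40 and 9.52 in mutant tissue. The groups were apart (0.99 ± 0.21, adjusted p = 0.0955). Irf8, a factor of the myeloid lineage, differed by 0.72 ± 0.19 (adjusted p = 0.212), and Irf9, which binds the response element together with STAT2, by 0.66 ± 0.19 (adjusted p = 0.272), each with separate groups. Irf1 (0.26 ± 0.23), Irf3 (-0.09 ± 0.16) and Stat2 (-0.25 ± 0.19) overlapped. A second bright Stat2 probe set gave 0.19, the opposite sign. The untested factors Irf2, Irf4 and Irf5 gave -0.44, 0.60 and 0.06, and the Irf2 groups were apart.

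Over all 64 genes, tested or not, 48 were higher in mutant tissue, with a median difference of 0.47 beside 0.00 over all genes. Groups were apart upward for 23 of the 64, against 6.69% of all genes, and downward for Ifi203, Ifitm5 and Irf2, against 7.23%. Of the 35 tested, 23 had an unadjusted p under 0.05, all of them higher, against 9.92% of all tested genes. Of these 35, 6 entered the test through the mutant arrays, which favours higher values in that count. The lowest differences among tested genes were those of Ifit1bl1 and Stat2, given above, and then Ifitm10 at -0.18 ± 0.10 (adjusted p = 0.61).

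The pathway around these genes was measured with lists chosen by function. Of 8 receptor and kinase genes, among them Ifnar1, Ifnar2, Jak1 and Tyk2, all were tested and none passed in tissue, with a median difference of -0.02. All 8 interferon ligand genes on the arrays had tissue group means below the 40th percentile, so none was tested. Among 14 further sensing and signalling genes 7 were tested and none passed, but 12 of the 14 were higher, with a median of 0.39. Groups were apart upward for 6 of the 14, against 6.69% of all genes, and downward for 0. None of 5 tested negative regulators passed, with 4 of 7 higher and a median of 0.23. A list of 42 other interferon-stimulated genes had 20 tested and 2 that rose, Lgals3bp and Rtp4, with 35 of the 42 higher and a median of 0.25.

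Markers of microglia and macrophages moved with the interferon genes in tissue. Of 16 such markers 11 rose, among them C1qb, Csf1r and Trem2, and their mean level was 12.08 to 12.18 on mutant arrays against 11.26 to 11.33 on wildtype arrays. Among 8 astrocyte markers 1, Gfap, rose and 7 were higher. Their mean was 14.57 to 14.73 on mutant and 14.41 to 14.48 on wildtype arrays, without overlap. Higher too were 7 of 8 mural, fibroblast and meningeal and 7 of 9 motor neuron markers. For oligodendrocytes it was 5 of 7 and for endothelial cells 2 of 7. None of these was called, and over all genes 49.7% were higher. All 8 T and NK cell markers on the arrays were below the 40th percentile in both genotypes. The part of the microglial, astrocyte and other cell type markers in the rise of the interferon genes was not tested. With all 18 arrays in one fit, which gives tissue and motor neurons a common spread, no interferon gene was called; of the 10, Usp18 and Bst2 were too dim over all arrays to be tested there, and the other 8 lost their call, with Ifit3 at an adjusted p of 0.0651. Leaving out 1 tissue array gave 3 to 12 called interferon genes. There were 6 without wildtype replicate 2, 5 without mutant replicate 2 and 3 without mutant replicate 3. The share of all tested genes called in these changed fits is not given, so the counts show only that calls moved.

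**Figure D2:**
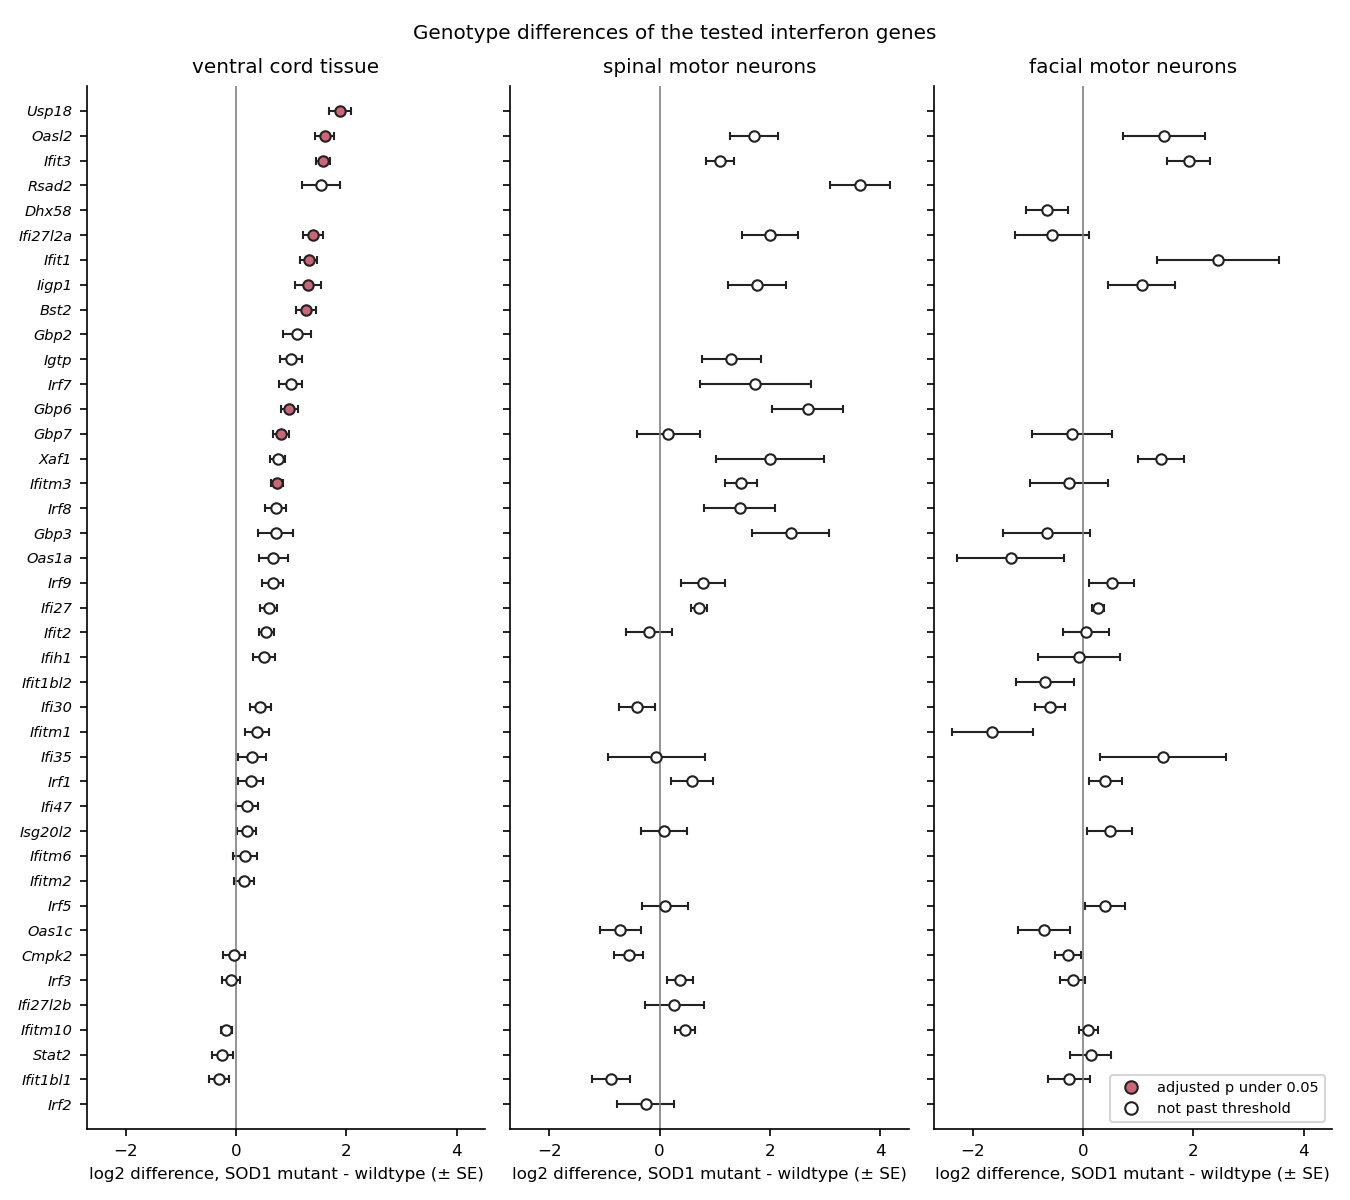
Log2 difference, SOD1 mutant minus wildtype, with its SE (n = 3 per group) for each interferon gene that was bright enough to be tested, in tissue (left), spinal motor neurons (middle) and facial motor neurons (right); filled points have an adjusted p under 0.05. The 10 filled points are all in tissue, and the SE bars are wider in both motor neuron panels.

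In spinal motor neurons no interferon gene passed the test, but the 10 genes called in tissue all had a positive difference here too. Over all genes 49.3% were higher. Of the 28 tested, 13 had an unadjusted p under 0.05 and 12 of these were higher in mutants, against 9.5% of all tested genes under 0.05 in either direction; the exception was Ifit1bl1. Across all tested genes limma called 0.0641%. The 10 genes that rose in tissue differed by 0.16 to 2.72 (median 1.87), 8 of them with groups apart upward, against 6.24% of all genes. Wildtype means of 9 of the 28 tested genes, Rsad2, Gbp6 and Oasl2 among them, lay under the lowest mean tested. These entered the test through the mutant arrays, which favours higher values in the count of 12 above.

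Rsad2 had the smallest adjusted p. It was at 7.11, 6.70 and 8.43 in wildtype and at 11.35, 11.31 and 10.49 in mutant spinal motor neurons. The groups were well apart, and the difference was 3.64 ± 0.55 (adjusted p = 0.0554). Without wildtype replicate 1, 2 or 3 its adjusted p was 0.0224, 0.0101 or 0.0355, and without 1 mutant array it was 0.169 to 0.401. Its dimmer probe sets gave -0.49 and 1.18.

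Ifit3 was at 10.62, 10.26 and 10.79 against 11.72, 11.66 and 11.57, so that the groups were apart in spinal motor neurons as in tissue. The difference was 1.09 ± 0.25 (2.13-fold, adjusted p = 0.249). Oasl2 was at 8.02, 8.71 and 8.99 against 10.24, 9.98 and 10.63, again without overlap (1.71 ± 0.44, adjusted p = 0.31). Usp18 was not tested, at 8.56, 8.06 and 5.62 in wildtype and 9.83, 9.68 and 9.95 in mutant motor neurons. Its 3 mutant arrays lay close together while wildtype replicate 3 stood far below the other two. Ifit1, also untested, was at 8.62, 6.50 and 5.89 against 9.09, 10.17 and 9.91.

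Gbp6 (2.68 ± 0.64, adjusted p = 0.268), Gbp3 (2.38 ± 0.70, adjusted p = 0.418), Ifi27l2a (2.01 ± 0.51, adjusted p = 0.292), Iigp1 (1.76 ± 0.52, adjusted p = 0.431) and Ifitm3 (1.48 ± 0.29, adjusted p = 0.139) had separate groups. Xaf1 overlapped, at 5.48, 9.23 and 10.15 in wildtype and 10.96, 9.96 and 9.95 in mutant motor neurons (adjusted p = 0.541). Bst2 differed by 1.98 with overlap and was not tested, and Gbp7 by 0.16 ± 0.57 (adjusted p = 0.934). Among the factors Irf8 (1.45 ± 0.65, adjusted p = 0.521), Irf9 (0.79 ± 0.41, adjusted p = 0.554) and Irf3 (0.37 ± 0.24, adjusted p = 0.605) were apart. Irf7 overlapped, at 9.64, 5.28 and 9.43 in wildtype and 9.34, 9.60 and 10.62 in mutant motor neurons (difference 1.73, adjusted p = 0.57). Irf1, Irf2 and Irf5 differed by 0.58, -0.25 and 0.10, and the untested Stat2 and Irf4 by 0.57 and -0.11.

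On the lower side Ifit1bl1 was at 11.65, 10.46 and 10.90 in wildtype and at 10.17, 10.20 and 9.98 in mutant spinal motor neurons. Its groups were apart downward (-0.89 ± 0.34, adjusted p = 0.493). Oas1c (-0.71 ± 0.38, adjusted p = 0.557) and Cmpk2 (-0.56 ± 0.26, adjusted p = 0.532) overlapped. Over all 64 genes 42 were higher, with a median of 0.41 beside -0.01 over all genes. Groups were apart upward for 19 genes, against 6.24% of all genes, and downward for Ifit1bl1 and Isg20, against 6.95%.

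Other values moved with genotype in spinal motor neurons. Microglial markers had a mean of 10.88 to 11.25 on mutant and 8.35 to 10.06 on wildtype arrays, with 2 of 16 called higher, Ctss and Laptm5. All 8 astrocyte markers were higher too, at a mean of 12.72 to 12.80 on mutant and 11.41 to 12.26 on wildtype arrays, without overlap, and Gfap passed the test. The actin ratio was 25.3 to 39.1 on mutant and 40.9 to 56.9 on wildtype arrays, without overlap. With that ratio as a covariate Rsad2 differed by 3.81 and Ifit3 by 1.23, neither passing, while Gbp3 differed by 0.74 and Xaf1 by 0.48. The part of the microglial and astrocyte markers was not tested. Wildtype replicate 2 was the lowest array both in microglial markers and in the mean of the 64 interferon genes, and without it 6 interferon genes were called, Gbp3, Gbp6, Ifi27, Ifitm10, Ifitm3 and Rsad2, while 6.10% of all tested genes were called. Without wildtype replicate 1 the called genes were Ifi27 and Rsad2, and without replicate 3 Rsad2 alone. All arrays in one fit called Gbp6, Ifi27 and Rsad2. For these further fits the share of all tested genes called is not given, so their calls are not read as particular to interferon genes.

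**Figure D3:**
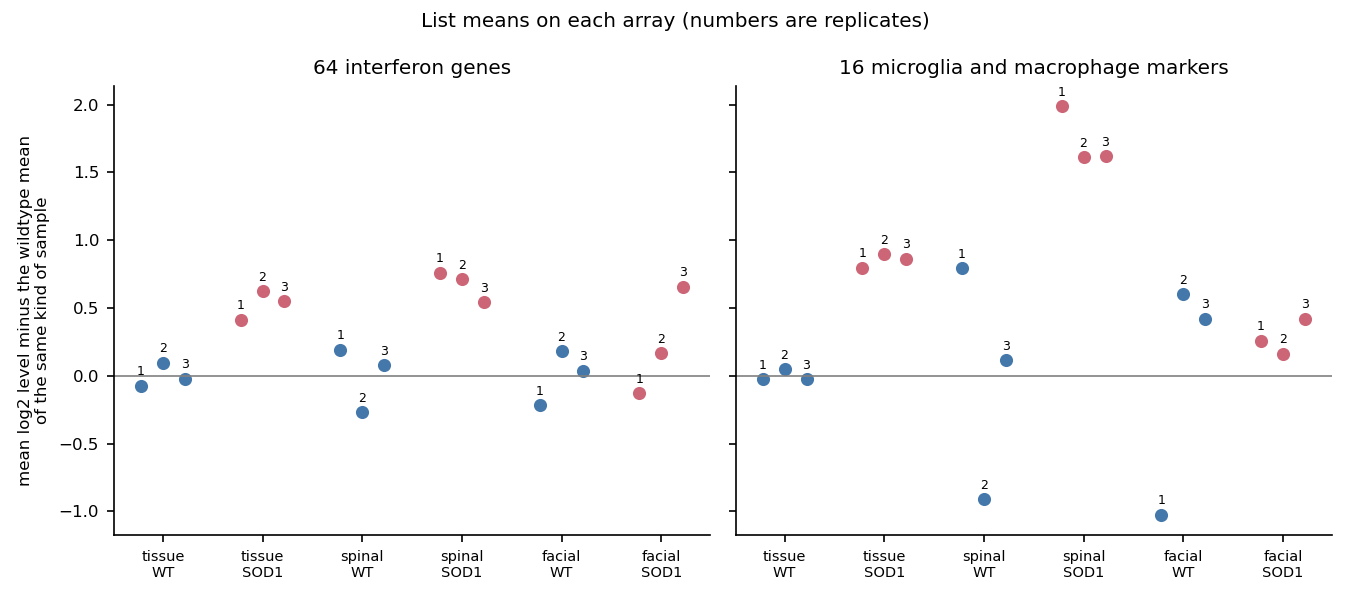
Mean log2 level of the 64 interferon genes (left) and of 16 microglia and macrophage markers (right) on each array, minus the wildtype mean of the same kind of sample; blue is wildtype, red SOD1 mutant, and the digits are replicate numbers, which only name the arrays. The interferon gene mean is higher on all mutant arrays in tissue (0.41 to 0.62 against -0.07 to 0.09) and in spinal motor neurons (0.54 to 0.76 against -0.27 to 0.19) and overlaps in facial motor neurons.

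In facial motor neurons no interferon gene passed, 33 of the 64 were higher with a median of 0.04, and the mean of the 64 genes overlapped between genotypes. Of the 28 tested, 4 had an unadjusted p under 0.05, against 17.9% of all tested genes, and limma called none of all tested genes (0.0%). Ifit1, Iigp1 and Oasl2 entered this test through the mutant arrays and Oas1a through the wildtype arrays. Groups were apart upward for 6 of the 64 genes, against 10.5% of all genes: Gbp6, Ifi27, Ifit1, Ifit3, Irf5 and Xaf1. They were apart downward for Dhx58, Ifi213 and Ifi30, against 8.89%.

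Ifit3 had the smallest adjusted p. Its levels were 9.49, 9.72 and 9.72 in wildtype and 10.63, 11.75 and 12.30 in mutant facial motor neurons. The difference of 1.91 ± 0.39 (3.77-fold) did not pass (adjusted p = 0.114). Ifit1 was at 4.51, 9.29 and 8.83 against 9.54, 9.62 and 10.82, with one wildtype array far below the rest and a difference of 2.45 ± 1.10 (adjusted p = 0.283). Gbp6 showed the largest difference of the 64 genes, at 6.35, 5.45 and 4.89 in wildtype and 9.78, 9.67 and 11.24 in mutant motor neurons, a difference of 4.66. It was too dim on average to be tested in this comparison, and its second probe set, which was brighter here at a mean of 8.65 against 7.90, gave 0.55. Xaf1 was at 9.65, 8.70 and 9.23 against 10.12, 10.30 and 11.40 (1.41 ± 0.42, 2.66-fold, adjusted p = 0.162).

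Mutant replicate 3 was the highest array for Oasl2, Usp18 and Rsad2 here. Oasl2 was at 8.36, 9.06 and 8.76 against 8.97, 9.42 and 12.21. Without mutant replicate 3 its difference was 0.47, in place of 1.47 ± 0.74 (adjusted p = 0.333). Usp18, untested, was at 7.21, 8.42 and 7.30 against 7.58, 7.59 and 11.15, the other mutant arrays lying within the wildtype range. Rsad2, untested, was at 7.72, 8.57 and 5.04 against 8.91, 8.53 and 11.76, with 1 wildtype array also far below the rest. That mutant array, replicate 3, also had the highest mean of the 64 genes, 0.66 above wildtype against -0.13 and 0.17 for the other two.

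Of the other genes that rose in tissue, Iigp1 was higher in facial motor neurons (1.06 ± 0.61, adjusted p = 0.39) and so was the untested Bst2 (1.13), both with overlap. Ifi27l2a (-0.57 ± 0.67), Ifitm3 (-0.26 ± 0.71) and Gbp7 (-0.20 ± 0.73) were lower and overlapped. Ifi35 differed by 1.45 ± 1.15 (adjusted p = 0.537), with wildtype replicate 1 at 5.50 against 11.16 and 9.85 on the others; without it the difference was -0.22. The lowest tested genes were Ifitm1 (-1.65 ± 0.73, adjusted p = 0.279), Oas1a (-1.31 ± 0.97, adjusted p = 0.505) and Oas1c (-0.70 ± 0.47, adjusted p = 0.456), all with overlap. Among the factors Irf5 was apart (0.40 ± 0.36, adjusted p = 0.592). Irf1, Irf9 and Stat2 gave 0.40, 0.52 and 0.14. Irf3 gave -0.19 ± 0.23, while its other bright probe sets gave 0.15 and -2.30. The untested Irf2, Irf4, Irf7 and Irf8 gave -0.51, -1.17, 0.50 and 0.06.

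Microglial markers were at a mean of 9.27 to 9.53 on mutant and 8.09 to 9.71 on wildtype facial arrays, so the genotypes overlapped, and none was called. The actin ratio was 26.6 to 59.0 on mutant and 59.7 to 74.4 on wildtype arrays. With it as a covariate the Ifit3 difference was 1.76 and that of Oasl2 -0.08. With all arrays in one fit Gbp6 and Ifit3 were called, but the share of all tested genes called in that fit is not given. No single array left out gave a call.

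**Figure D4:**
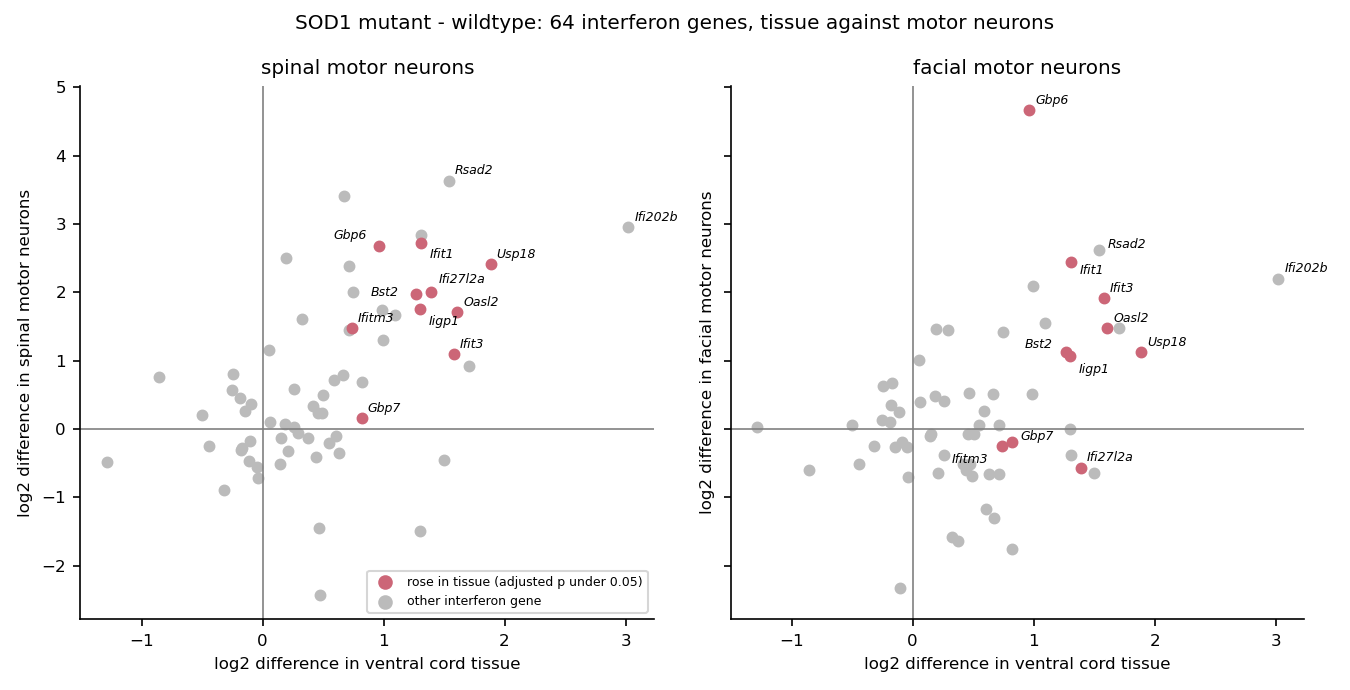
Log2 difference, SOD1 mutant minus wildtype, of all 64 interferon genes in tissue (horizontal axis) against spinal (left) and facial motor neurons (right, vertical axes); red points rose in tissue, and Rsad2 and Ifi202b are labelled as well. All 10 red points are above zero for spinal motor neurons, and 7 of 10 for facial motor neurons, beside 49.3% and 51.7% of all genes.

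Of the 23 genes apart upward in tissue 13 were also apart in spinal motor neurons, 56.5% of the tissue genes and 68.4% of the 19 spinal ones. Over all genes the same shares were 14.2% and 15.2%. In facial motor neurons 5 of the 23 were apart, 21.7% of the tissue genes and 83.3% of the 6 facial ones, beside 10.1% and 6.45% over all genes. Gbp6, Ifi27, Ifit1 and Ifit3 were apart upward in all 3, as were 0.143% of all genes. Whether the genotype difference itself differed between kinds of sample was tested with an interaction term, and limma called no interferon gene in any of the 3 comparisons, against 0.055%, 0.0458% and 0.0% of all tested genes for spinal motor neurons minus tissue, facial motor neurons minus tissue and spinal minus facial motor neurons. For spinal motor neurons minus tissue 6 of 35 tested genes had an unadjusted p under 0.05 (8.85% of all genes), and the smallest adjusted p was 0.512, shared by Rsad2 (2.10 ± 0.69) and Oas1a (2.73 ± 0.96). For facial motor neurons minus tissue it was 3 of 28 (16.1% of all genes), with Ifi30, a lysosomal thiol reductase, at -1.04 ± 0.33 (adjusted p = 0.158) and Ifi27l2a at -1.96 ± 0.76 (adjusted p = 0.233). For spinal minus facial motor neurons 3 of 28 were under 0.05 (9.04% of all genes), led by Ifi27l2a (2.58 ± 0.89, adjusted p = 0.459). Calls appeared without 1 array in the first pair of these tests. They were Ifitm10 and Oas1a without wildtype spinal replicate 2, Gbp6 and Ifitm1 without wildtype facial replicate 1, and Gbp6 without wildtype facial replicate 2. The share of all tested genes called in those fits is not given. The intervals of the interaction terms are wide, so an equal response in the 3 kinds of sample is not shown.

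A set of dim genes never entered a test. None of the 6 genes of the Ifi200 family, which sense or bind DNA, reached the level needed in any genotype comparison. Ifi202b was at 4.52, 4.62 and 5.35 in wildtype and at 7.85, 7.69 and 8.02 in mutant tissue. Spinal motor neurons gave 5.48, 5.81 and 4.93 against 8.24, 8.11 and 8.74. Facial motor neurons gave 4.85, 5.09 and 5.22 against 5.14, 7.65 and 8.98. Its groups were thus apart in tissue and in spinal motor neurons and overlapped in facial motor neurons. All group means of Ifi202b lie below the 40th percentile, though mutant facial replicate 3, at 8.98, was above it. The wildtype levels are near the lower bound that the added 16 sets, so the sizes of the differences are not compared. A probe set that Ifi202b shares with a further locus is described under the flagged results. With every gene tested in tissue, Ifi202b passed (adjusted p = 0.0296). The other 5 genes of the family differed by -1.29 to 0.26 in tissue.

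The wildtype groups were also compared between kinds of sample, where large shares of all genes differed. Between wildtype spinal motor neurons and tissue 23 of the 64 were tested, and 6 were called higher in motor neurons and 6 lower, against 35.5% and 23.1% of all tested genes, so the interferon genes did not stand out by number. Oas1c (2.80 ± 0.41, adjusted p = 0.00046), Ifi27 (1.93 ± 0.20, 3.80-fold, adjusted p = 6.56e-05) and Irf5 (1.81 ± 0.43, adjusted p = 0.00634) were the largest higher. Ifitm2 (-4.10 ± 0.32, adjusted p = 2.01e-05), Ifitm3 (-3.42 ± 0.17, adjusted p = 3.14e-06) and Xaf1 (-2.63 ± 1.01, adjusted p = 0.0489) were the largest lower. The wildtype levels of Ifitm2 were 12.12, 12.33 and 12.45 in tissue, 8.83, 7.70 and 8.08 in spinal and 7.17, 9.45 and 9.16 in facial motor neurons. Those of Oas1c were 7.79, 7.99 and 7.62, then 11.17, 9.88 and 10.75, and 11.58, 9.48 and 10.75. Tissue was thus high in the first and low in the second, without overlap.

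Wildtype facial motor neurons against the same tissue arrays gave 24 tested genes, with 7 called higher and 4 lower, against 41.3% and 26.9% of all tested genes. Oas1c (2.80 ± 0.50, adjusted p = 0.00138), Ifi27 (2.38 ± 0.14, 5.22-fold, adjusted p = 3.57e-06) and Ifitm10 (1.52 ± 0.11, 2.87-fold, adjusted p = 1.02e-05) were again higher. Ifitm2 (-3.70 ± 0.54, adjusted p = 0.000428) and Ifitm3 (-2.44 ± 0.65, adjusted p = 0.0101) were lower, and Ifi35 had a large difference that did not pass (-1.88 ± 1.26, adjusted p = 0.215). Both comparisons share the wildtype tissue arrays, and the actin ratio differs with the kind of sample, so kind of cell and RNA length cannot be told apart here. Ifit3 itself was lower in both kinds of wildtype motor neuron than in tissue, by 0.79 ± 0.22 (adjusted p = 0.0129) in spinal and by 1.70 ± 0.18 (adjusted p = 6.66e-05) in facial ones.

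Between the wildtype motor neurons of cord and facial nucleus no interferon gene was called by limma, against 3.96% of all tested genes, with 7 of 23 at an unadjusted p under 0.05 (21.5% of all genes). Ifit3 (0.91 ± 0.32, adjusted p = 0.14) and Isg20l2 (1.11 ± 0.46, adjusted p = 0.206) were higher in spinal motor neurons, with Ifi35 at 0.77 ± 1.36 (adjusted p = 0.778). Gbp3 (-2.13 ± 0.75, adjusted p = 0.143), Ifitm1 (-2.11 ± 0.82, adjusted p = 0.177) and Ifi27l2a (-1.31 ± 0.57, adjusted p = 0.222) were lower. Leaving out wildtype spinal replicate 1 called Ifi27, and leaving out wildtype facial replicate 1 called Ifitm1 and Ifitm3. All 18 arrays in one fit called 7 genes here. The share of all tested genes called in these changed fits is not given, so whether the interferon genes stood out in them is not shown.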

How the data were processed

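The deposited values are one intensity per probe set and array, 45101 probe sets on 18 arrays, made by the authors from the array scans; the summarising software and normalisation step are not given in the sources used here. On every array the mean after trimming 2% at each end was 2500, so the deposited values had been scaled. Of the probe sets 34945 match 1 gene symbol, 932 several and 9224 none in the platform annotation. From there log2(intensity + 16) was taken, quantile normalised over all probe sets, and the probe set of highest mean kept for each of 18193 genes. Each comparison was fitted on its own groups with limma 3.58.1 in R 4.3.3 (lmFit, eBayes with trend), on the 10916 genes above the 40th percentile of mean level, with two-sided p-values adjusted by Benjamini-Hochberg over all of them; a gene passed at an adjusted p under 0.05. The procedure was tested on simulated data. A fold is on the log2(value + 16) scale and understates the change of dim genes.

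The interferon genes, the pathway and marker lists and the tests were chosen with earlier results of these data known. Genes are named by rule: Ifit3, Usp18, Oasl2 and Rsad2; Stat2 and every Irf; every gene past the threshold; the 5 largest higher and 3 largest lower tested genes of each genotype comparison; and the 3 largest each way of each wildtype comparison. Others named were picked after their values were seen. Promoter windows come from RefSeq (GRCm38.p6), and 15 of the 64 genes are not in that table. The 10 probe sets that match several genes were left out of the comparisons. Alternatives were other scalings and pseudocounts, no filter, no trend, one fit over all arrays, a replicate block, each array left out and, added after seeing the data, the actin ratio as a covariate.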

Additional observations from a re-analysis of the deposited data

Results flagged for a closer look

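Of the 10 probe sets that match several genes, and so entered no comparison above, 2 had separate genotype groups with a mutant mean of 8.79 or more. One, which matches Isg15 and Gm9706, was higher by 0.82 on the log2 scale in mutant tissue, at a mean of 9.93 against 9.11. The lowest mutant array was at 9.73 and the highest wildtype array at 9.39. The other, which matches Ifi202b and a further locus, was higher by 4.44 in mutant spinal motor neurons, at a mean of 9.62 against 5.18. Its lowest mutant array was at 9.19 and its highest wildtype array at 6.73. At lower levels that probe set was apart in tissue too, at 7.53 against 5.07. A further 2 probe sets were apart upward in tissue below 8.79, at 7.43 against 5.82 and at 7.74 against 6.53. In facial motor neurons the first of these was apart downward, at 7.36 against 8.35, as was another, at 4.85 against 6.44. Over all genes groups were apart upward for 6.69% in tissue and 6.24% in spinal motor neurons. They were apart downward for 8.89% in facial motor neurons. None of these differences was tested, and none can be given to 1 gene.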

How the results depend on the processing

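With 3 arrays per group the calls moved with the processing. The share of all tested genes called is not given beside the counts of this section. These counts thus show only that calls moved, not whether the interferon genes stood out. In tissue 10 interferon genes were called; 1 fit over all 18 arrays called 0, the median scaling 8, no filter 8, no trend 7 and the actin covariate 14. Leaving out 1 array gave 3 to 12. For spinal motor neurons, with 0 called, a common median and a pseudocount of 64 each called 1, the single fit 3, and leaving out 1 array 0 to 6. For facial motor neurons the single fit called 2 and leaving out an array 0. The interactions gave 0 to 2 with an array left out for spinal or facial motor neurons minus tissue, and 0 for spinal minus facial. For wildtype facial motor neurons minus tissue 11 became 20 with no filter; wildtype spinal minus facial became 7 in the single fit and 0 to 2 with an array left out.

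With the actin covariate these differences changed sign: Gbp7 (-0.16), Irf1 (-0.50) and Irf2 (0.018) in spinal and Oasl2 (-0.076), Gbp7 (0.0025), Irf9 (-0.20) and Oas1a (0.38) in facial motor neurons; the cause was not tested. With 1 array left out sign changes gave ranges of -0.18 to 0.073 for Irf3 in tissue. In spinal motor neurons they were -0.44 to 0.55 for Gbp7, -0.60 to 0.047 for Irf2 and -0.21 to 0.46 for Irf5. In facial motor neurons they were -1.14 to 0.59 for Gbp7, -1.22 to 0.23 for Ifi27l2a, -1.15 to 0.30 for Ifitm3, -0.015 to 0.32 for Stat2 and -0.22 to 2.61 for Ifi35. Ifi35 in wildtype spinal minus facial motor neurons ran from -0.90 to 1.93. Over all named differences and counts, 375 of 427 values with an array left out and 528 of 566 under other settings kept direction and side of the threshold.

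Same-numbered arrays correlated at 0.02 to 0.30 in their deviations from the group means. This was over 0.1 in 3 of 9 pairs and above the highest value with another number in 7 of 9, a hint of pairing from the data that the labels do not state, so the samples were not treated as paired. With the replicate block 14 genes were called in tissue, and spinal and facial motor neurons stayed at 0. Of 26 further probe sets of these genes the same sign was found for 18 in tissue, for 14 in the spinal and for 16 in the facial comparison.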
